A study of Mus musculus with 11 samples.

Results

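The 10 genes described here form the core of the adipocyte programme: the transcription factor genes Pparg, Cebpa, Cebpb and Zfp423, the fatty acid supply genes Lpl, Cd36 and Fabp4, the lipid droplet coat genes Plin1 and Plin2, and the adipokine gene Adipoq. They were taken from the table by symbol, and all 10 were found among the 47643 genes measured in 11 RNA-seq libraries of mouse skin fibroblasts. The libraries came from normal back skin (NS) and from excisional wounds at day 5 after injury (5dw) of wild-type (WT) mice and of Act mice, which overexpress activin A. There were 3 libraries each of WT NS, Act NS and WT 5dw and 2 of Act 5dw, numbered 1 and 3, because the authors dropped the library numbered 2 at quality control. Each library pooled the RNA of 3 mice of 9 to 12 weeks, all of a mixed strain with 50% CD-1 and 50% C57Bl/6.

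Act mice carry an INHBA transgene under the keratin 14 promoter, a promoter active in keratinocytes. Cells were sorted alive as CD45- and CD140a+, with CD3, CD11b and F4/80 as further negative markers. CD140a, the receptor encoded by Pdgfra, is carried by most skin fibroblasts and also by adipocyte precursors, so the sort does not part these cell kinds. In preparing NS the fat beneath the skin was taken off, and wounds were cut out with a punch that left most of the skin around them behind, so that adipose tissue was sampled differently in the 2 tissues. The RNA input was 100 ng for NS and 200 ng for 5dw, so that input and tissue cannot be told apart. Values are RPKM, read numbers normalised for the length of the gene and the depth of sequencing, and differences are log2 fold changes (log2FC) of RPKM + 0.5 from limma, called at an adjusted p under 0.05, with p-values adjusted over all 11979 genes that reached 1 RPKM in at least 2 libraries.

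Adipocytes develop from mesenchymal precursors in a cascade of transcription factors. C/EBPβ and C/EBPδ act early and switch on PPARγ and C/EBPα, which then maintain each other and the genes of lipid storage, while ZFP423 marks cells that are already committed to the lineage. In the skin, dermal white adipocytes lie below the reticular dermis around hair follicles, and the precursors among the lower dermal fibroblasts contribute to the repair of wounds.

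The mapped total behind each library, worked out from the steps between low RPKM values, was 38740458 to 39702042 in WT 5dw and 18649306 to 29718976 in the other groups. Whole reads were obtained for 9 of the 10 genes, and Lpl was the exception. PC2 of all genes set WT NS 1 and Act NS 1 (22.4 and 35.7) apart from the other NS libraries. In WT 5dw against WT NS 58.3% of all genes tested were called at an adjusted p under 0.05, 1132 higher and 5846 lower, and the typical gene fell, with a median log2FC of -0.40. In Act 5dw against Act NS 45.6% were called, 1083 higher and 4376 lower, with a median of -0.31. Median-ratio scaling between libraries brought the typical gene close to no change, with a median log2FC of -0.064 in WT and -0.056 in Act. The splits were then 2321 higher and 3027 lower in WT and 2089 and 2818 in Act. A change is therefore given under both scalings below where its call differs.

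The sequences upstream of the 4 genes whose calls held in both genotypes and under both scalings are shown first, so that the start regions of the genes that fell can be compared. RefSeq promoters (build GRCm38.p6) were at hand for 8 of the 10 genes, with 11 start sites in all, and the 250 bases before each start were searched on both strands. Capitals mark every match to the C/EBP motif TTGCNNAA, to the nuclear receptor element AGGTCA and to the TATA box TATAAA, and a match on the other strand appears as its reverse complement. Pparg has 3 starts in the table, all on the + strand of chromosome 6, and the adipocyte form PPARγ2 is known to be made from a promoter inside the gene. Its outermost start had the window chr6:115360894-115361143 and its innermost start chr6:115421816-115422065. Cebpa lies on the + strand with the window chr7:35119043-35119292. Cd36 and Zfp423 lie on the - strand with the windows chr5:17835897-17836146 and chr8:87959596-87959845, of which the latter is the outer of 2 starts.
Pparg, outermost start: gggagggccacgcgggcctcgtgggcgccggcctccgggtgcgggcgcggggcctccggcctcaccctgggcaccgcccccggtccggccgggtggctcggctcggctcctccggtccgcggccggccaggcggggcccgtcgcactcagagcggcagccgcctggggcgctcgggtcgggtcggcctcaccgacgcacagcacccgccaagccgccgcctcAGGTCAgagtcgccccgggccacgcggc
Pparg, innermost start: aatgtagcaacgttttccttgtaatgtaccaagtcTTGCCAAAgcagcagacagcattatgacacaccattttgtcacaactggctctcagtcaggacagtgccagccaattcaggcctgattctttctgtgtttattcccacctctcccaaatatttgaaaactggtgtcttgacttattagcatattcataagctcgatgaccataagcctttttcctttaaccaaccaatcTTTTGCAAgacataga
Cebpa: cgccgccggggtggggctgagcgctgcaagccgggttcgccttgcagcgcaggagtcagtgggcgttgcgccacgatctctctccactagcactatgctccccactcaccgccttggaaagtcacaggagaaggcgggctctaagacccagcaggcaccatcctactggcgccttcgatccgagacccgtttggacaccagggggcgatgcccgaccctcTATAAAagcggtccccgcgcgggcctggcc
Cd36: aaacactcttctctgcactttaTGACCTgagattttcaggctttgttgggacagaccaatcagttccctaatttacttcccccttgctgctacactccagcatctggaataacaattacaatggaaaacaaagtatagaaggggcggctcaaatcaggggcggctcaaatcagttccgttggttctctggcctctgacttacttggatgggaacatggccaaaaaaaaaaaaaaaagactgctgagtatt
Zfp423, outer start: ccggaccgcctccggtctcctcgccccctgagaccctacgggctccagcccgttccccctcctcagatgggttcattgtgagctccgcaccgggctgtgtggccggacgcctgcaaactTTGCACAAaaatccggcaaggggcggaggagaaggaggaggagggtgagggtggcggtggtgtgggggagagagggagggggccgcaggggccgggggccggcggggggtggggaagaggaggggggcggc

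The 2 Pparg windows share little in composition, with 82.4% G and C in the outermost and 40.8% in the innermost. The innermost window held 2 C/EBP matches, TTGCCAAA starting 215 bases and TTTTGCAA starting 16 bases before the start, and 0.572% of the 32851 promoters in the table held a pair or more. The Plin1 window, which is not printed, also held 2. The Zfp423 window held 1 C/EBP match, 131 bases before the start. In all, 3 of the 11 windows held the C/EBP motif, against 9.56% of all promoters, and 5 held AGGTCA, against 14.0%. The TATA box stood 30 bases before the start of Cebpa, and 2 of 11 windows had one, against 12.4%. No window held the direct repeat of AGGTCA that PPARγ binds with RXR (DR1), which 0.0335% of all promoters held. These are matches of letters in a short window, and windows of the same gene are not independent.

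Pparg, the nuclear receptor that commits cells to the adipocyte fate, was low in NS and lower in 5dw. Its RPKM was 1.36, 1.56 and 2.15 in WT NS, 1.23, 1.88 and 1.47 in Act NS, against 0.102, 0.428 and 0.384 for WT 5dw and 0 and 0.0925 for Act 5dw. No 5dw library reached the level of any NS library. The reads behind these values were 101, 86 and 189 in WT NS, 87, 134 and 100 in Act NS, against 12, 49 and 44 for WT 5dw and 0 and 7 for Act 5dw. A count of 0 in Act 5dw 1 allows up to 0.0495 RPKM, taking 3 reads as the limit for counting error. The log2FC was -1.45 in WT (SE 0.21, limma adjusted p = 0.00029) and -1.89 in Act (SE 0.24, limma adjusted p = 0.000177). The offset of 0.5 shrinks these values, and limma-voom on the recovered reads gave -2.70 in WT (adjusted p = 0.000887) and -5.63 in Act (adjusted p = 0.00441), while an offset of 0.1 gave -2.24 and -3.53. Pparg passed the filter on low values through its 6 NS libraries alone, so a gene with its 5dw values could be tested only by being higher in NS. Gene-level reads do not part the isoforms, and the gene (chromosome 6, 115360951 to 115490399, + strand) overlaps the antisense gene Gm44079.

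Cebpa encodes the partner factor that sustains the differentiated state. Of the 9 genes tested it showed the largest log2FC of RPKM + 0.5 in both genotypes. With limma-voom or an offset of 0.1 that of Pparg was larger, and with limma-voom in Act that of Cd36 was larger too. For Cebpa, WT NS had 23.1, 22.8 and 31.1 RPKM and Act NS had 21.4, 24.2 and 35.6. WT 5dw had 4.80, 6.03 and 7.13 RPKM and Act 5dw had 4.43 and 4.01. The lowest NS library was thus well above the highest 5dw library, with at least 240 reads in each of the 11. The group means gave a ratio of 4.29 between WT NS and WT 5dw and of 6.42 between Act NS and Act 5dw. The log2FC was -2.01 in WT (SE 0.21, limma adjusted p = 2.94e-05) and -2.51 in Act (SE 0.23, limma adjusted p = 2.47e-05), and after median-ratio scaling it was -1.64 and -2.25. Cebpa is a gene of a single exon (chromosome 7, 35119293 to 35121928, + strand) that overlaps the antisense gene Gm45091, with which it shares 0.835% of its 31-base sequences.

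Cebpb, the early factor of the cascade and also a gene of inflammation and stress, stayed among the strongest of the 10 in all groups. Its RPKM was 51.2, 76.3 and 62.9 in WT NS, 48.4, 50.7 and 56.1 in Act NS, against 23.2, 38.1 and 42.1 for WT 5dw and 52.7 and 34.3 for Act 5dw. The 3 WT 5dw libraries lay below all WT NS libraries, whereas Act 5dw 1 lay within the range of Act NS. In WT the log2FC was -0.90 (SE 0.24, limma adjusted p = 0.00834), and after median-ratio scaling it was -0.51 and no longer called (adjusted p = 0.113). In Act it was -0.28 (95% interval -0.87 to 0.31, limma adjusted p = 0.415). The Act value depended on single libraries, at -0.58 without Act 5dw 1 and 0.03 without Act 5dw 3. The difference between the WT and Act changes was 0.62 (95% interval -0.17 to 1.41, unadjusted p = 0.113, limma adjusted p = 0.999) and so was not shown. The single exon of Cebpb (chromosome 2, 167688915 to 167690418, + strand) lies across Tmem189 on the other strand and shares 19.6% of its 31-base sequences with other genes, mainly Tmem189. Reads were stranded, but the strand setting of the authors' counting is not stated, so reads of Cebpb and Tmem189 cannot be told apart here.

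The ratio of Cebpa to Cebpb within a library does not depend on scaling between libraries. This ratio was chosen after the values were seen and is given without a test. It was 0.452, 0.299 and 0.495 in WT NS and 0.443, 0.478 and 0.635 in Act NS. The wound libraries stood at 0.206, 0.158 and 0.169 for WT and at 0.0842 and 0.117 for Act. WT NS libraries averaged 0.415 ± 0.103 (SD, n = 3) and WT 5dw libraries 0.178 ± 0.0251 (n = 3). Act NS libraries averaged 0.519 ± 0.103 (n = 3) and Act 5dw libraries 0.101 ± 0.0232 (n = 2). All 5dw libraries were below all NS libraries, and both Act 5dw libraries were below the 3 WT 5dw libraries.

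Zfp423, the zinc finger factor of committed preadipocytes, was present at a moderate level with a small spread. Its RPKM was 4.51, 3.79 and 3.76 in WT NS, 3.88, 4.55 and 4.35 in Act NS, against 2.01, 2.49 and 1.90 for WT 5dw and 2.28 and 2.05 for Act 5dw. The tissues were again wholly apart. The log2FC was -0.78 in WT (SE 0.12, limma adjusted p = 0.000461) and -0.84 in Act (SE 0.14, limma adjusted p = 0.000914). Median-ratio scaling reduced the change to -0.45 in WT and -0.59 in Act, and both stayed called (adjusted p = 0.0106 and 0.00546).

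**Figure D1:**
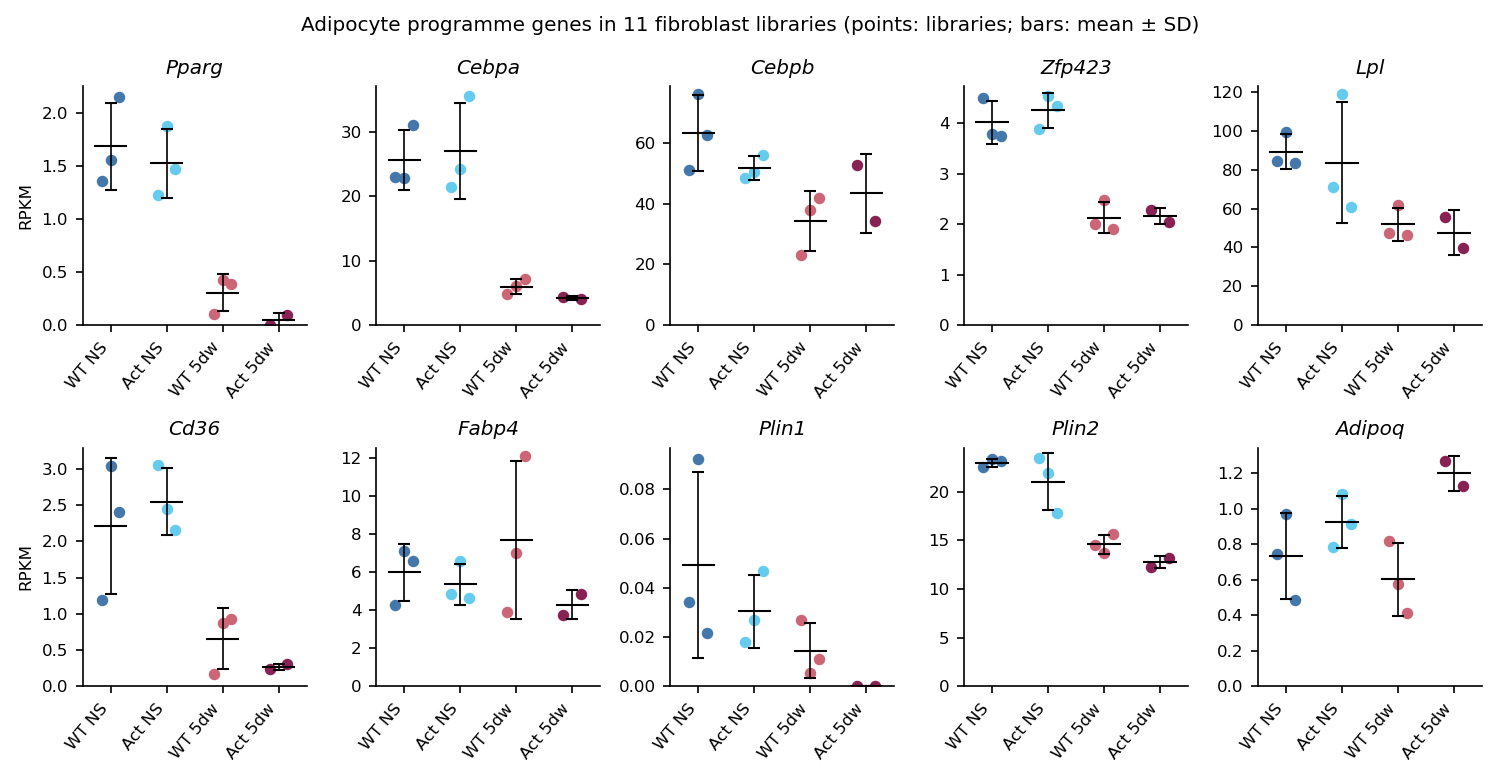
RPKM (vertical axis, starting at 0) of the 10 genes in WT NS, Act NS, WT 5dw and Act 5dw. Each point is 1 library, and the bars give the mean and SD of the group. Pparg, Cebpa, Zfp423, Cd36 and Plin2 have no 5dw library within the NS range, whereas Fabp4 and Adipoq overlap between the tissues.

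Of the fatty acid supply genes, Lpl encodes the lipase that frees fatty acids from lipoproteins and was the strongest of the 10 genes by mean level in all 4 groups. Its RPKM was 84.5, 99.6 and 83.5 in WT NS, 71.1, 119 and 60.9 in Act NS, against 47.5, 61.8 and 46.3 for WT 5dw and 55.8 and 39.5 for Act 5dw. WT 5dw lay below WT NS in all libraries, and Act 5dw lay below Act NS with a narrow gap. The log2FC was -0.78 in WT (SE 0.24, limma adjusted p = 0.0159) and -0.77 in Act (SE 0.27, limma adjusted p = 0.0365). With median-ratio scaling the log2FC was -0.40 in WT (adjusted p = 0.199) and -0.48 in Act (adjusted p = 0.18). In WT the log2FC stayed near its value without single libraries while the adjusted p went above 0.05, at -0.70 without WT NS 2 (adjusted p = 0.0508), -0.73 without WT 5dw 1 (adjusted p = 0.0519) and -0.71 without WT 5dw 3 (adjusted p = 0.0554). In Act the log2FC was -0.48 without Act NS 2 (adjusted p = 0.0987) and -0.52 without Act 5dw 3 (adjusted p = 0.262). Libraries of the same number were taken as pairs in WT 5dw against WT NS, although nothing says that they share a day or litter. Under that assumption, the replicate block and median-ratio scaling together gave Lpl a call in this comparison at -0.40 (adjusted p = 0.0412).

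Cd36, the fatty acid translocase, was weak in NS and weaker in 5dw. Its RPKM was 1.19, 3.03 and 2.40 in WT NS, 3.05, 2.44 and 2.15 in Act NS, against 0.175, 0.870 and 0.926 for WT 5dw and 0.244 and 0.304 for Act 5dw. The highest 5dw library was below the lowest NS library, although the values within WT NS and within WT 5dw were widely spread. The log2FC was -1.24 in WT (SE 0.32, limma adjusted p = 0.00655) and -1.97 in Act (SE 0.35, limma adjusted p = 0.00135), and limma-voom on the recovered reads gave -1.95 and -3.17. Like Pparg, it passed the filter through its NS libraries alone.

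Fabp4, the intracellular fatty acid carrier that is among the most abundant transcripts of mature fat, did not follow the others. Its RPKM was 4.29, 7.12 and 6.57 in WT NS, 4.85, 6.58 and 4.62 in Act NS, against 3.91, 7.0 and 12.1 for WT 5dw and 3.75 and 4.83 for Act 5dw. The tissues overlapped, and WT 5dw held both one of the lowest and the highest of the 11 values. The log2FC was 0.23 in WT (95% interval -0.49 to 0.94, limma adjusted p = 0.558) and -0.28 in Act (95% interval -1.08 to 0.52, limma adjusted p = 0.548). The WT value depended on single libraries, at 0.61 without WT 5dw 1 and -0.15 without WT 5dw 3. Endothelial cells and macrophages also use Fabp4, and their marker levels are given below.

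Of the lipid droplet genes, Plin2 encodes the perilipin of many cell types and Plin1 the perilipin of adipocytes. Plin2 was tightly grouped, with 22.5, 23.3 and 23.1 RPKM in WT NS, 23.4, 21.9 and 17.8 in Act NS, against 14.5, 13.7 and 15.6 for WT 5dw and 12.3 and 13.2 for Act 5dw. No 5dw library reached an NS library. The log2FC was -0.64 in WT (SE 0.12, limma adjusted p = 0.00134) and -0.69 in Act (SE 0.14, limma adjusted p = 0.00225). After median-ratio scaling these were -0.26 and -0.41 and were not called (adjusted p = 0.174 and 0.0669).

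Plin1 was the weakest of the 10 genes and the only one below the filter, since it reached 0.0923 RPKM at most. Its 11 libraries held 0 to 8 reads each. There were 4, 8 and 3 reads in WT NS, 2, 3 and 5 in Act NS, 5, 1 and 2 in WT 5dw, and none in both Act 5dw libraries, where a count of 0 allows up to 0.0314 and 0.0252 RPKM. In the fit with no filter its log2FC was -0.09 both in WT 5dw against WT NS (limma adjusted p = 0.169) and in Act 5dw against Act NS (limma adjusted p = 0.284), and no comparison called it. The offset added to RPKM before taking logs was larger than every Plin1 value and so held these log2FC close to no change. The fit therefore could not decide whether Plin1 differed between the groups. Mean RPKM was 0.0494 in WT NS and 0.0146 in WT 5dw, with overlapping ranges, and 0.0305 in Act NS and 0 in Act 5dw. With so few reads a difference was neither shown nor excluded.

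Adipoq encodes adiponectin, a hormone made almost only by adipocytes. Its RPKM was 0.746, 0.971 and 0.487 in WT NS, 0.787, 1.08 and 0.914 in Act NS, against 0.821, 0.579 and 0.411 for WT 5dw and 1.27 and 1.13 for Act 5dw. The tissues overlapped, and the 2 Act 5dw libraries were the highest of the 11. These values rested on 20 to 45 reads a library, and Adipoq passed the filter only through Act NS 2 and both Act 5dw libraries. The log2FC was -0.16 in WT (95% interval -0.58 to 0.26, limma adjusted p = 0.488) and 0.26 in Act (95% interval -0.21 to 0.73, limma adjusted p = 0.346). The WT value depended on single libraries, from -0.31 without WT NS 3 to -0.02 without WT NS 2.

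Across the 9 genes tested, 7 fell in WT 5dw against WT NS and none rose, beside 48.8% of all genes called lower and 9.45% called higher. In Act 5dw against Act NS 6 fell and none rose, beside 36.5% and 9.04%. The median log2FC of the 9 was -0.78 in WT and -0.77 in Act, against -0.40 and -0.31 for all genes. With median-ratio scaling 4 were called in each genotype, namely Pparg, Cebpa, Cd36 and Zfp423, all lower, beside 25.3% of all genes called lower and 19.4% called higher in WT and 23.5% and 17.4% in Act. In 5 of 9 genes the 5dw libraries all lay below the NS libraries, which held for 38.9% of all genes tested, and in 0 of 9 all above, beside 8.45%. Pparg and Cd36 could enter these counts only by being higher in NS. In bulk RNA, fewer cells that use a gene and less RNA per cell cannot be told apart, and the p-values measure the spread between pools of mice.

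**Figure D2:**
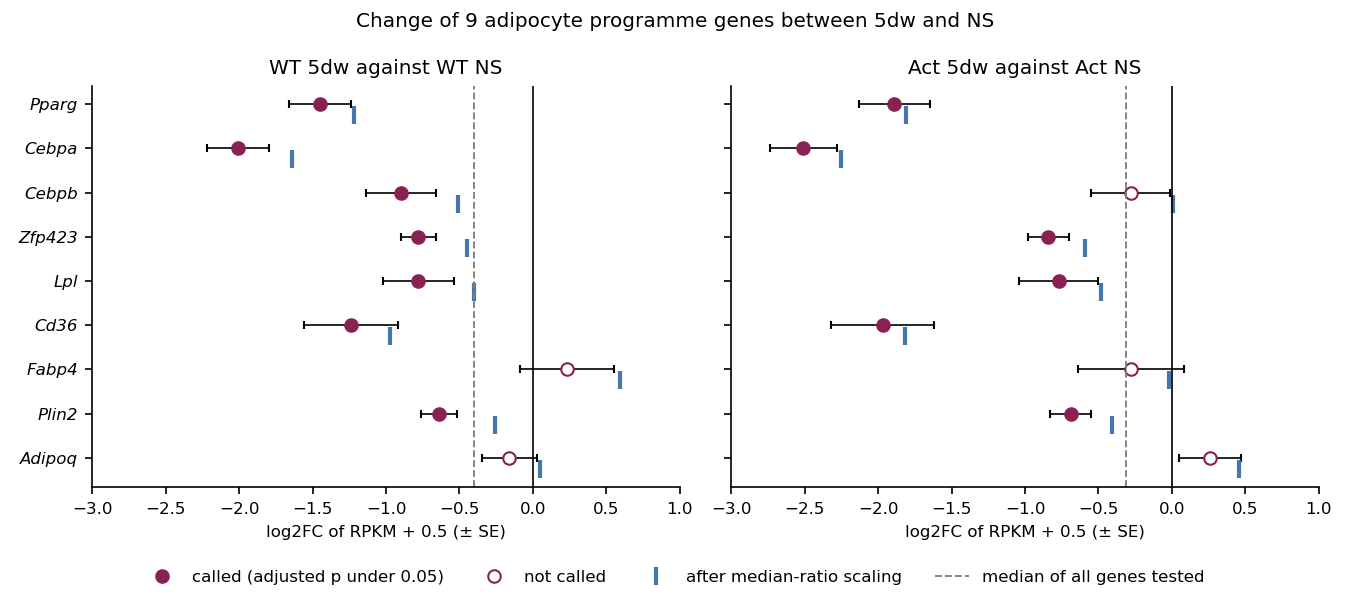
Change of the 9 genes tested in 5dw against NS, with WT on the left and Act on the right. The horizontal axis is the log2FC of RPKM + 0.5, bars are the standard error, filled points are called, blue ticks give the log2FC after median-ratio scaling and the dashed line is the median of all genes tested (-0.40 and -0.31). Cebpa lies farthest to the left in both, at -2.01 and -2.51.

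The order of the 10 genes by mean RPKM, a scale per gene length, was nearly the same in WT and Act. In NS it ran from Lpl and Cebpb through Cebpa, Plin2, Fabp4, Zfp423, Cd36, Pparg and Adipoq to Plin1. The ranges over the 6 NS libraries overlapped for Lpl and Cebpb, for Cebpa and Plin2, for Fabp4 and Zfp423, and for Cd36 and Pparg, so these neighbours were not parted by their spread. Cebpa was at rank 3 in NS and at rank 5 in 5dw, behind Plin2 and Fabp4, although its range overlapped that of Fabp4. Adipoq was at rank 9 in NS, behind Pparg, and at rank 8 in WT 5dw and rank 7 in Act 5dw, ahead of Pparg. The first 4 genes in NS were thus Lpl, Cebpb, Cebpa and Plin2, and Plin1 and Adipoq, the genes most particular to adipocytes, were the weakest.

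Within the 6 NS libraries Pparg was set against each of the other 9 genes. No pair passed an exact permutation test (two-sided, lowest adjusted p = 0.87 over 9 pairs). By r over the 6 libraries the strongest was Fabp4, with a Pearson r of 0.72 (exact permutation p = 0.13), a Spearman rho of 0.6 (exact permutation p = 0.24) and an r of 0.62 without WT NS 3 and Act NS 2, which were farthest from the median of Pparg. For Pparg and Cebpa r was 0.42 (exact permutation p = 0.39) and rho was 0.54 (exact permutation p = 0.3), and r stayed at 0.42 without those 2 libraries. Other pairs rested on them, since without them r went from -0.11 to 0.93 for Plin1, from -0.30 to 0.85 for Adipoq and from 0.36 to 0.88 for Cebpb.

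The genes whose profile over all 11 libraries was most like that of Pparg were Sned1, Ormdl2, Enpep, Cltb and Ifngr1. The root mean square difference of their centred log2(RPKM + 0.5) values from Pparg was 0.191 to 0.212, against a median of 0.718 for all genes tested. Sned1, a matrix protein gene, had 44.4 to 66.4 RPKM in NS and 14.9 to 20.8 in 5dw. Enpep, which encodes aminopeptidase A, had 8.28 to 13.3 RPKM in NS and 2.93 to 4.71 in 5dw. No member of the 10 genes was among these 5. The offset of 0.5 shrinks the profile of Pparg, whose mean RPKM was 5.54 times higher in WT NS than in WT 5dw, so the likeness holds on this scale only.

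Act and WT were compared within each tissue, to ask whether activin overexpression moved the programme. In Act NS against WT NS limma called none of the 9 genes, beside 0.0167% of all genes. None reached an unadjusted p under 0.05, beside 824 of all 11979 genes. The log2FC ranged from -0.28 for Cebpb to 0.22 for Adipoq and Cd36. The 95% intervals reached 0.27 to 0.72 to either side, and for Pparg they ran from -0.58 to 0.37 and for Cebpa from -0.40 to 0.51. No gene had its 3 Act NS libraries all above or all below WT NS, which held for 0.993% and 7.98% of all genes.

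In Act 5dw against WT 5dw limma also called none, beside 0.0334% of all genes. Of the 9, 2 had an unadjusted p under 0.05, beside 386 of all 11979 genes. Adipoq was higher in both Act 5dw libraries than in all 3 WT 5dw libraries, with a log2FC of 0.64 (95% interval 0.17 to 1.11, unadjusted p = 0.0123, limma adjusted p = 1), and its passing the filter rested on Act libraries alone. Pparg was lower in both, with a log2FC of -0.54 (95% interval -1.07 to -0.01, unadjusted p = 0.0464, limma adjusted p = 1). The offset of 0.5 shrinks this value too, which was -1.43 with an offset of 0.1 and -3.09 by limma-voom on the recovered reads, and no alternative called it. Cebpa and Plin2 were also lower in both Act libraries, with log2FC of -0.44 (95% interval -0.95 to 0.06) and -0.19 (95% interval -0.49 to 0.11). Over the alternatives the log2FC of Adipoq ran from 0.46 to 1.03, and none of them called it. Thus 3 of the 9 genes lay wholly below WT and 1 wholly above, against 15.2% and 7.87% of all genes tested. With 2 libraries against 3, none of these differences passed the correction. The interaction of wounding and genotype was called for none of the 9 (0.0% of all genes, limma). None had an unadjusted p under 0.05, beside 400 of all 11979 genes. Limma-voom on the recovered reads also called none of the 9 in any of these 3 comparisons. Lpl was among the 9 although its reads were not whole.

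Markers of other cells were measured beside these changes. The mature adipocyte list (Cidec, Lep, Retn, Cfd, Lipe, Plin4, Aqp7, Thrsp, Slc2a4, Pck1, Adrb3 and Cidea) summed to 4.37 to 11.7 RPKM in NS and to 0.776 to 1.04 in 5dw. Most of the NS sum was Cidea except in Act NS 1, where it was 0.754 of 4.37 RPKM. Cidea had a mean of 5.40 RPKM in NS and 0.0348 in 5dw, and this gene is also used by sebocytes. Over the 12 genes the median was 0.217 RPKM in NS and 0.0311 in 5dw, and none was at 0 in every library. Lep, the leptin gene, was at 0 in 10 of 11 libraries, Cidec stayed at or below 0.188 RPKM, Lipe was 0.328 to 0.64 in NS and Plin4 was 0.862 to 1.57 in NS. Cidea and Plin4 alone of the 12 passed the filter, through NS libraries alone, and so could be tested only by being higher in NS. The part of adipocytes in the changes was not tested.

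Keratinocyte and sebocyte markers also moved with the tissue, and their counts stand beside 48.8% of all genes called lower in WT and 36.5% in Act. The 10 keratinocyte genes summed to 1180 to 4330 RPKM in NS and 120 to 1040 in 5dw, where WT 5dw 3, the library with the highest Fabp4, stood apart at 1040 and the other 4 libraries lay at 120 to 298. Of the 10 genes 8 fell in each genotype and 1, Krt15, had passed the filter through NS libraries alone, with Krt10 going from a mean of 807 to 14.8. The 10 sebocyte genes summed to 118 to 263 RPKM in NS and 58.4 to 66.3 in 5dw, and 7 of 8 tested fell in WT and 5 in Act, where 5 of the 8 had passed the filter through NS libraries alone. Their top gene Mgst1 had means of 80.2 RPKM in NS and 52.3 in 5dw, and Krt79 was 41.7 to 185 in NS and 1.62 to 4.52 in 5dw. Mgst1 made up most of the 5dw sums, and Mgst1 and Krt79 together most of the NS sums. Both epithelia use Pparg or Cebpa, and the part of keratinocytes and sebocytes in the changes of the 10 genes was not tested. Endothelial sums were 23.2 to 40.8 in NS and 22.5 to 29.6 in 5dw, macrophage sums were 12.8 to 20.5 and 22.1 to 29.1, and pan-immune sums were 0.929 to 1.96 and 1.15 to 2.02, and their part in the level of Fabp4, Cd36 and Lpl was not tested. The top genes of these lists were Tek (means of 21.9 RPKM in NS and 6.74 in 5dw), Cd14 (3.16 and 13.0) and Cd53 (0.108 and 0.664). Members of a list did not all go one way. Pecam1, another endothelial gene, was 3.39 to 5.66 RPKM in NS and 11.5 to 14.0 in 5dw, and Cd68, another macrophage gene, was 6.16 to 12.0 and 4.69 to 6.31. Of 4 endothelial genes tested 1 rose and 1 fell in WT and 2 rose and 1 fell in Act. Among these 4, Cdh5 had passed the filter through 5dw libraries alone and so could be tested only by being higher in 5dw. Of 4 macrophage genes 2 rose in WT and 1 rose and 1 fell in Act. Pericyte sums, led by Ndufa4l2, were 57.4 to 115 in NS and 68.0 to 114 in 5dw, and skeletal muscle sums, led by Tnnt3, were 2.94 to 6.12 and 2.16 to 3.47. The fibroblast list, led by Col1a1, summed to 10900 to 16800 in NS and 22500 to 25900 in 5dw, but of its 10 genes 4 rose and 4 fell in WT and 4 rose and 3 fell in Act. Col1a1 had means of 3380 RPKM in WT NS and 9160 in WT 5dw, Dcn had 4390 and 1870, and Pdgfra, the gene of the sort marker CD140a, had 56.1 and 35.8.

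**Figure D3:**
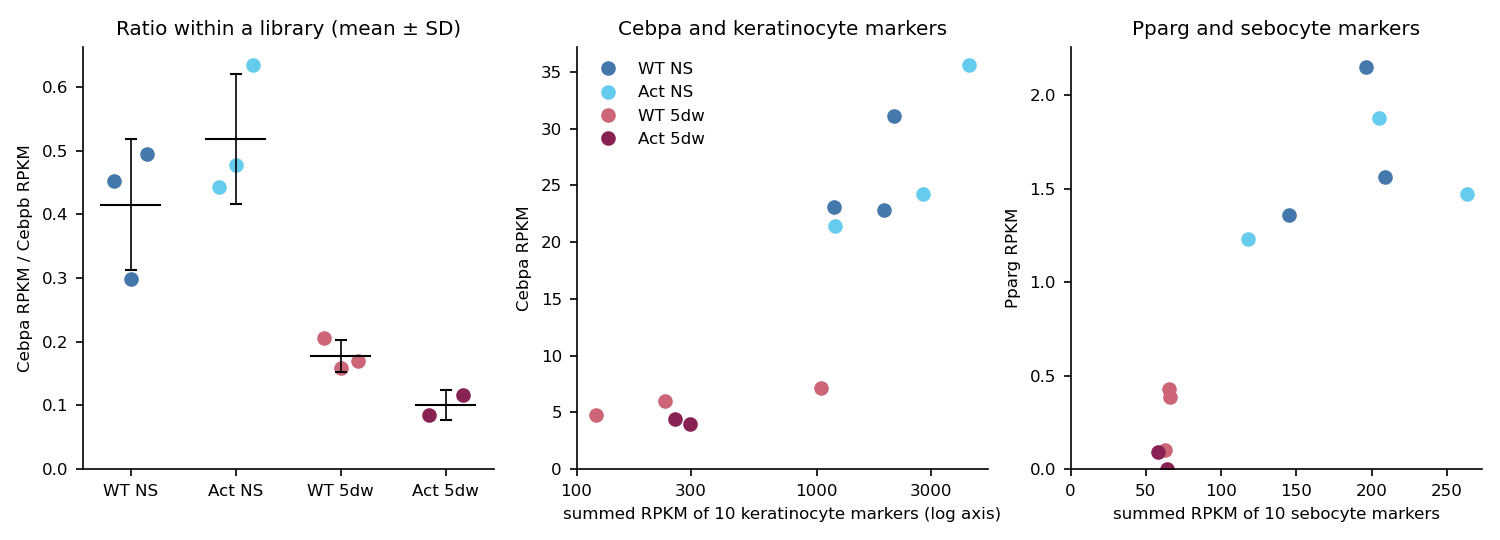
Left, the ratio of Cebpa to Cebpb RPKM in each library by group, with mean and SD. Middle and right, the RPKM of Cebpa against the summed RPKM of 10 keratinocyte markers (log axis) and the RPKM of Pparg against the summed RPKM of 10 sebocyte markers, with 1 point for each library in the colours of the legend. The 5dw libraries lie lower than the NS libraries on both axes of the middle and right plots, with keratinocyte sums of 120 to 1040 against 1180 to 4330 and sebocyte sums of 58.4 to 66.3 against 118 to 263.

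The wider programme was described with 9 lists of 102 genes, none of them among the 10, and 81 passed the filter. In WT 5dw against WT NS 7 rose, 52 fell and 22 were not called, with a median log2FC of -0.77, beside 9.45% of all genes called higher, 48.8% called lower and a median of -0.40. In Act 5dw against Act NS 7 rose, 46 fell and 28 were not called, with a median of -0.76, beside 9.04%, 36.5% and -0.31. With median-ratio scaling 14 rose and 37 fell in WT, and 11 rose and 38 fell in Act, where the shares of all genes were 19.4% higher and 25.3% lower in WT and 17.4% and 23.5% in Act. Of the 81 genes 10 passed the filter through NS libraries alone and 1, Apln, through 5dw libraries alone, so the direction of these was set by the filter. The shares of all genes under each scaling apply to each list below, and differences between lists were not tested.

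Of the 16 adipogenic transcription factors tested none rose, and 15 fell in WT and 12 in Act, or 12 and 11 with median-ratio scaling. Among them Klf15, Nr1h3 and Zfp467 had passed the filter through NS libraries alone. Cebpd, the partner of Cebpb in the early wave, averaged 207 ± 17.0 RPKM over WT NS libraries (SD, n = 3) and 82.2 ± 34.7 over WT 5dw libraries (n = 3), with a log2FC of -1.43 (SE 0.28, limma adjusted p = 0.00138). Klf9, a glucocorticoid-responsive factor, went from 43.2 ± 2.35 to 16.2 ± 3.38 RPKM with a log2FC of -1.41 (SE 0.17). Klf4 was not called, at 632 ± 110 and 618 ± 74.8 RPKM. Of the 11 inhibitors of adipogenesis tested, 2 rose and 4 fell in WT and 1 rose and 2 fell in Act, while with median-ratio scaling 3 rose and 2 fell in each genotype. The 3 were Klf2, Sox9 and Ddit3, of which Klf2 in both genotypes and Sox9 in WT were also called without that scaling. Klf2 had a log2FC of 0.98 (SE 0.28) in WT and 1.10 (SE 0.31) in Act, and the Act call was lost without Act 5dw 3 (0.89, limma adjusted p = 0.125). The Sox9 call in WT was also lost in some alternatives, with a limma adjusted p of up to 0.0836. Wwtr1, the gene of TAZ, had -0.34 (SE 0.11) in WT, which turned to 0.04 with median-ratio scaling and was not called without WT 5dw 1 (limma adjusted p = 0.0667) or WT 5dw 3 (limma adjusted p = 0.0536).

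Of the 11 adipocyte precursor markers, 8 fell in each genotype and 2 rose in WT and 1 in Act, and with median-ratio scaling 6 fell in WT and 5 in Act with 2 and 1 that rose. Pi16, a gene of the adventitial fibroblast population, went from 444 ± 87.7 to 174 ± 76.5 RPKM in WT, with a log2FC of -1.41 (SE 0.27). Icam1 went from 296 ± 70.4 to 109 ± 7.70 RPKM with a log2FC of -1.41 (SE 0.19). Ly6a, which encodes Sca-1, had a log2FC of -0.70 (SE 0.22) in WT and -1.19 (SE 0.25) in Act, and the WT call was lost with median-ratio scaling (-0.32, limma adjusted p = 0.278) and without single libraries, with an adjusted p of up to 0.0801 without WT 5dw 3 (-0.57).

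Of 11 fatty acid uptake and lipase handling genes 1 rose and 3 fell in WT, and 3 rose and 3 fell in Act. With median-ratio scaling, under which more of all genes are called higher and fewer lower, 5 rose and 1 fell in WT and 4 rose and 3 fell in Act. Angptl4, an inhibitor of lipoprotein lipase that hypoxia and fasting induce, rose from 34.7 ± 9.19 to 65.7 ± 6.37 RPKM in WT, a log2FC of 0.94 (SE 0.35, limma adjusted p = 0.0404), and by 1.05 (SE 0.40, limma adjusted p = 0.049) in Act. Both Angptl4 calls were lost in some alternatives, with an adjusted p of up to 0.14 in WT, without WT NS 3 (log2FC 0.75), and up to 0.167 in Act, without Act 5dw 3 (log2FC 1.03), and the Act log2FC was 0.58 without Act NS 3 (adjusted p = 0.108). Of 7 triglyceride synthesis genes none rose, and 5 fell in WT and 4 in Act, or 4 and 3 with median-ratio scaling. Gpam, the first acyltransferase of the path, had log2FC of -1.12 (SE 0.24) in WT and -0.77 (SE 0.27) in Act, and the Act call was lost with median-ratio scaling (-0.52, limma adjusted p = 0.0949) and without single libraries, with an adjusted p of up to 0.162 without Act 5dw 3 (-0.72) and a log2FC of -0.50 without Act NS 3 (adjusted p = 0.111).

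Of 6 lipid droplet genes 5 fell in WT and 4 in Act, and 1 rose in each, and with median-ratio scaling 4 and 3 fell and 1 rose. Cidea and Plin4, which fell, had passed the filter through NS libraries alone. The one that rose was Hilpda, an inhibitor of the lipase ATGL that hypoxia induces, with a log2FC of 1.06 (SE 0.20, limma adjusted p = 0.00133) in WT and 1.07 (SE 0.23, limma adjusted p = 0.00319) in Act. Of 6 lipolysis genes 3 fell in each genotype and none rose, which is close to the share of all genes called lower in WT, and with median-ratio scaling 3 fell and 1 rose in each. Mgll, the lipase of monoglycerides, went from 18.5 ± 0.908 to 4.10 ± 1.66 RPKM in WT, with a log2FC of -2.11 (SE 0.25) in WT and -1.57 (SE 0.28) in Act, while Abhd5, the cofactor of ATGL, was not called (-0.24 and -0.13).

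Of 7 adipokine and receptor genes 1 rose in each genotype, and 3 fell in WT and 4 in Act, while with median-ratio scaling 2 rose and 2 fell in WT and 1 rose and 3 fell in Act. The adiponectin receptor gene Adipor1 was not called, at 16.6 ± 1.19 RPKM in WT NS and 13.9 ± 0.354 in WT 5dw. All 6 insulin response genes tested fell in both genotypes. Irs1 had a log2FC of -1.24 (SE 0.15) in WT and -0.88 (SE 0.17) in Act, Irs2 had -0.67 (SE 0.18) and -0.94 (SE 0.21), and Akt2 had -0.77 (SE 0.12) and -0.82 (SE 0.14). With median-ratio scaling 3 of the 6 fell in WT and 5 in Act, and Irs2 was not called in WT (-0.29, limma adjusted p = 0.242). Between the genotypes limma called none of the 81 genes in either tissue and none for the interaction. An unadjusted p under 0.05 was reached by 6 of them in NS, 1 in 5dw and 1 for the interaction. Of all 11979 genes it was reached by 824, 386 and 400.

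**Figure D4:**
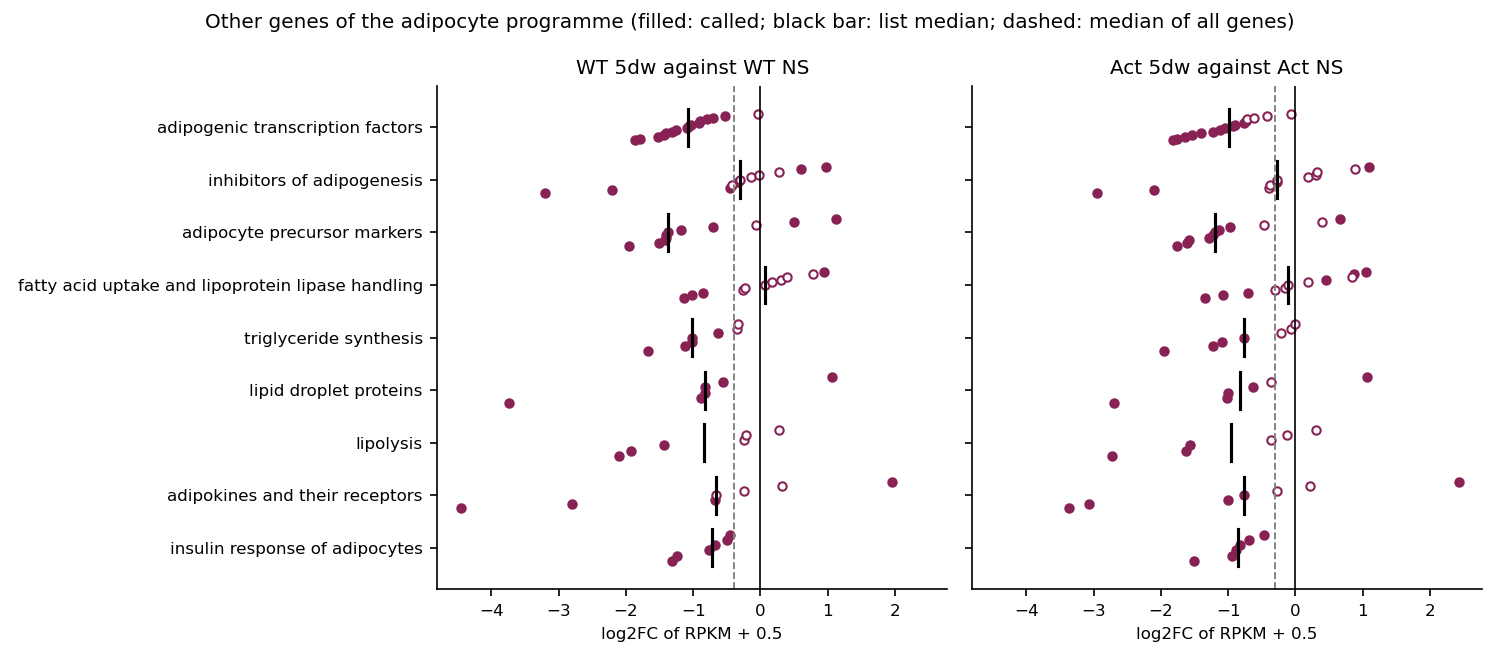
log2FC of RPKM + 0.5 (horizontal axis) of the 81 other adipocyte programme genes tested, by list (vertical axis), in WT on the left and Act on the right. Each point is 1 gene, filled where called, black bars are list medians and the dashed line is the median of all genes tested. The adipogenic transcription factors have no filled point to the right of 0, and their median was -1.08 in WT and -0.99 in Act.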

How the data were processed

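Poly-A RNA was measured in 11 libraries of sorted skin fibroblasts. Per the methods of the study, the authors aligned single-end 100 bp reads to GRCm38 with the CLC Genomics Workbench. The values they deposited are RPKM per gene and not counts. The edgeR exact test that the authors ran on counts was therefore replaced by limma-trend (limma 3.58.1, R 4.3.3) on log2(RPKM + 0.5) of genes with at least 1 RPKM in at least 2 libraries, with 1 mean per group over all 11 libraries and 7 residual degrees of freedom. Every value column was used. Adjustment was by Benjamini-Hochberg over all genes of a comparison. An exact permutation test of 3 libraries against 3 cannot go below p = 0.1, so single genes rest on the model. Median-ratio scaling, another offset (0.1 or 1), no filter or one of 5 RPKM, array weights, no trend, a replicate block, fits without single libraries and limma-voom on recovered reads were the alternatives.

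Mapped totals were recovered from RPKM and GENCODE M21 exon lengths as the number that turns low values into whole reads. Of 14765 genes under 200 reads, 82.0% came out whole in every library within 0.03 of a read. Fabp4 gave whole reads with the length of its 896-base transcript. Limits for counts of 0 cover counting error only. The scripts were tested on simulated data.

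The 10 genes, the other lists and the marker lists were chosen with earlier results of these data known. All 10 genes are described. Of each wider list the 3 genes with the highest mean RPKM were the ones open to naming, with Pparg-like profiles taken as the 5 nearest by root mean square difference and the top gene of each marker list named. The values of 1 gene so chosen are not reported here. Plin4, Lep, Cidec, Lipe, Klf15, Nr1h3, Zfp467, Sox9, Ddit3, Apln, Pecam1, Cdh5, Cd68, Dcn, Pdgfra, Krt15 and Krt79 were named after their values were seen. Nothing says that libraries of the same number share a day or litter. The deviations of same-numbered libraries from their group means correlated at 0.188, 0.12 and 0.109 between WT 5dw and WT NS and at 0.554, 0.423 and 0.334 between Act NS and WT NS, so the numbers were taken to pair those libraries. The 2 pairs with Act 5dw gave 0.0187 and 0.143 with Act NS and -0.0777 and 0.189 with WT 5dw, and these libraries share only a number. Python 3.11.15, pandas 2.3.3 and scipy 1.17.1 were used for tables and permutation tests. Whether the authors counted by strand, and the annotation they used, are not given in the sources used here.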

Additional observations from a re-analysis of the deposited data

How the results depend on the processing

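Of 808 values of the 9 genes under the alternatives, 791 kept their direction or their side of the threshold as reported, 16 lost a call and 1 gained one. In WT 5dw against WT NS the 7 called genes became 4 with median-ratio scaling and 4 of 5 tested with a filter of 5 RPKM, which leaves fewer genes. In Act 5dw against Act NS the 6 called became 4 with median-ratio scaling and 3 with the filter of 5 RPKM. Leaving out single libraries gave 6 to 7 and 5 to 6 calls, and without both WT NS 1 and Act NS 1 there were 7 and 6. With the replicate block there were again 7 and 6, and no call of the 9 genes changed in any comparison. Of the named genes of the wider lists, the replicate block added calls for Nampt (adjusted p = 0.0035) and Lpin3 (adjusted p = 0.0443) in WT 5dw against WT NS and changed no other call. With the replicate block and median-ratio scaling there were 5 and 5, where Lpl was called in WT and Adipoq in Act at 0.52 (adjusted p = 0.0437), and the cause was not tested. In Act, the Lpl call was also lost with no filter (adjusted p = 0.0749) and in a fit of only the groups compared (adjusted p = 0.0974), at a log2FC of -0.77 in both, as reported. Of 1242 values of the named genes of the wider lists, 65 lost a call, 23 gained one and 2 reversed, which were of Wwtr1. Wwtr1 in WT 5dw against WT NS turned from -0.34 to 0.04 with median-ratio scaling and to 0.04 with the replicate block and that scaling.

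Among all genes, calls lower than NS made up 83.8% of calls in WT and 80.2% in Act, and 56.6% and 57.4% with median-ratio scaling. The filter of 5 RPKM left 6596 of 11979 genes, and calls in WT 5dw against WT NS went from 6978 (58.3%) to 3771 (57.2%) and those in Act 5dw against Act NS from 5459 (45.6%) to 3104 (47.1%). Without Act 5dw 3 the latter were 3505. Calls between genotypes were 2 in NS and 4 in 5dw, and 9 and 18 with no filter, 0 to 7 and 0 to 4 without single libraries, and 11 and 3 without both NS libraries numbered 1. For the interaction there were 0, and 10 with no filter. Depth limits Plin1, Adipoq and Pparg in 5dw, whose reads were few.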
